A study of Caenorhabditis elegans with 66 samples.

Results

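The col- genes are the largest named group of collagen genes in the nematode Caenorhabditis elegans, and peaks of the SNAPc subunits SNPC-4, SNPC-1.2 and SNPC-1.1 were examined at all 156 of them. They were every annotated protein-coding gene whose symbol begins with col-, of 19983 protein-coding genes in RefSeq's annotation of the WBcel235 genome, and 3 col- pseudogenes were left out. A gene was counted as having a peak when the summit of a called peak lay within 200 bp of either end of the gene. Of the 156 genes, 44 had a peak in at least 1 of 33 immunoprecipitated (IP) libraries and 112 had none. The annotation used here gives no strand, so 5′ and 3′ ends were not told apart, and gene ends are called lower and upper by their coordinate.

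Cuticle collagens are secreted by the hypodermis and cross-linked into the worm's exoskeleton, which is shed and rebuilt at each larval moult, with many collagen genes switched on in a wave before each moult. They are transcribed by RNA polymerase II as ordinary messenger RNAs. SNAPc, the small nuclear RNA activating protein complex, starts transcription at small nuclear RNA genes, and in the worm germline SNPC-4 is also needed at piRNA genes. Most piRNA genes lie in a pair of clusters on chromosome IV, called here the smaller and the larger one. Not every col- symbol names a cuticle protein: col-99 encodes a transmembrane collagen.

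Chromatin immunoprecipitation and sequencing was done with FLAG-tagged worms (3xflag on each tested subunit) and with N2, the untagged wild type, with 3 replicates in each of 11 groups. Germline nuclei at 56 h (young adult) came from snpc-1.1::3xflag and N2 worms (dataset 3). Whole worms at 72 h (gravid adult) of dataset 1 carried snpc-1.2::3xflag together with snpc-4::aid and with Psun-1::tir1 (called the AID strain here), or snpc-1.2::3xflag alone, or were N2. Whole worms of dataset 2 at 72 h were snpc-4::3xflag; snpc-1.2(-), then snpc-4::3xflag, then N2. Those at 48 h (L4, the last larval stage, in which the adult cuticle is made) were snpc-4::3xflag; snpc-1.3(-), then snpc-4::3xflag, then N2. In the AID strain the germline promoter of sun-1 drives TIR1, which lets auxin deplete SNPC-4 there, though no label records an auxin treatment. Per the labels some animals of a flask were taken at 48 h and the others kept until 72 h, so the 2 ages may come from shared flasks. Whole worms mix hypodermis, germline and all other tissues, so the tissue behind a whole-worm peak is not known. Subunit, tissue, age and dataset change together between germline nuclei and whole worms and cannot be told apart.

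Tagged lists held 14538 to 16732 peaks in dataset 2, 4791 to 9926 for SNPC-1.2, and 14912, 1504 and 10238 for SNPC-1.1 replicates 2, 3 and 4. The AID strain had 67 to 281 peaks. N2 lists held 947 to 4229 peaks in dataset 2, 28 to 1001 in germline nuclei and 2 to 16 in dataset 1. SNPC-1.1 replicate 3 and the N2 lists of dataset 1 stood apart as short lists. Read depth is unknown, and a longer list places peaks at more genes, so the shares of collagen genes are set beside those of all protein-coding genes.

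Collagen genes carried a SNAPc peak less often than protein-coding genes as a whole. SNPC-4 peaks lay at 10, 12 and 10 collagen genes in the 3 libraries at 72 h and at 13, 11 and 14 at 48 h. N2 worms had 1, 2 and 7 at 72 h and 8, 8 and 2 at 48 h. All SNPC-4 libraries stood above all N2 libraries of the same age. As a share, collagen genes with a SNPC-4 peak made up 6.84% ± 0.740 (SD, n = 3) at 72 h and 8.12% ± 0.979 at 48 h. The shares of all protein-coding genes were 17.5% ± 0.355 and 15.5% ± 0.600. In N2 at 72 h the collagen share was 2.14% ± 2.06, below the 4.32% ± 2.55 of protein-coding genes. In N2 at 48 h it was 3.85% ± 2.22, above the 2.80% ± 1.66 of protein-coding genes.

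The other tagged groups gave the same order, collagens below the whole. With snpc-1.2 deleted, SNPC-4 had a peak at 6.62% ± 0.370 of collagen genes and 15.6% ± 1.2 of protein-coding genes. With snpc-1.3 deleted the values were 9.62% ± 1.92 and 16% ± 0.833. SNPC-1.2 had 7, 5 and 3 collagen genes with a peak, or 3.21% ± 1.28, against 6.49% ± 3.81 of protein-coding genes. SNPC-1.1 in germline nuclei had 19, 0 and 13, the 0 in its short list, or 6.84% ± 6.23, against 11% ± 8.96 of protein-coding genes. The AID strain and N2 of dataset 1 had none in any library. Over all 21 tagged libraries, 38 collagen genes (24.4%) had a peak in at least 1, against 30.0% of protein-coding genes. These shares have no test, since they are values over a chosen list.

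**Figure D1:**
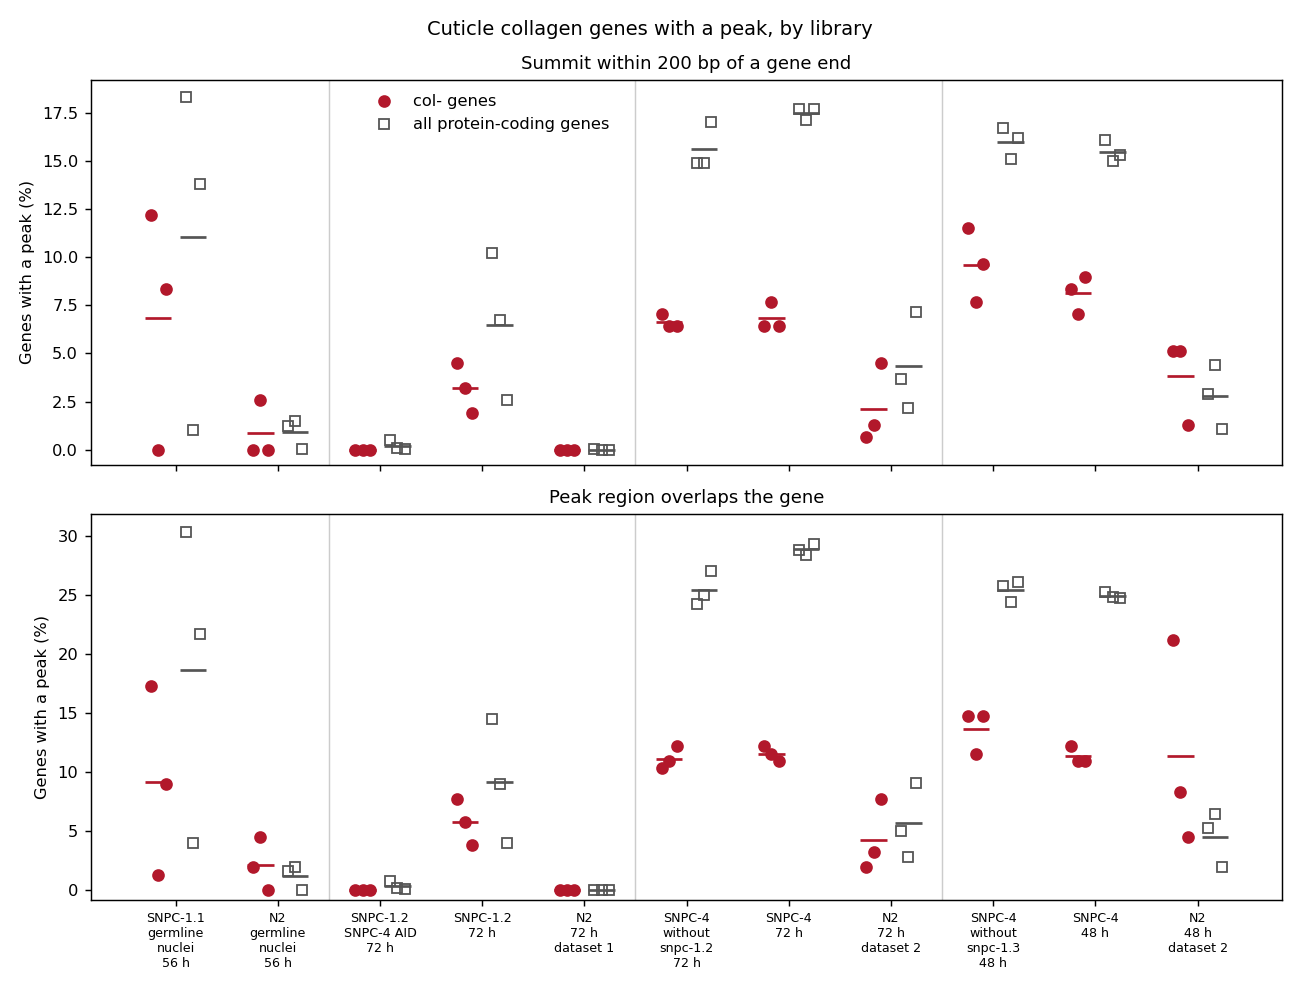
Percent of col- genes (filled red circles) and of all protein-coding genes (open grey squares) with a peak, 1 point per library and a line at the mean of 3. Above, a summit within 200 bp of a gene end counts and all 6 SNPC-4 libraries without a deletion have 6.41% to 8.97% of collagen genes; below, any overlap of a peak region with the gene counts, and N2 48 h replicate 1 stands at 21.2%.

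The 38 genes split into a small recurrent set and a long tail. In at least 10 of the 21 tagged libraries 10 genes had a peak, 6 had one in 3 to 9, and 22 in only 1 or 2. By chromosome, IV held 17 of the 38 among its 41 collagen genes (41.5%, against 48.5% of its protein-coding genes), while chromosome I held 2 of 21 (9.52%, against 33.1%). The recurrent genes were col-128 in 17 libraries, col-137 and col-181 in 15, col-120, col-133 and col-153 in 14, col-138 in 12, col-122 and col-94 in 11 and col-132 in 10. No separate role is given here for these 10, each annotated as a collagen of this family.

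**Figure D2:**
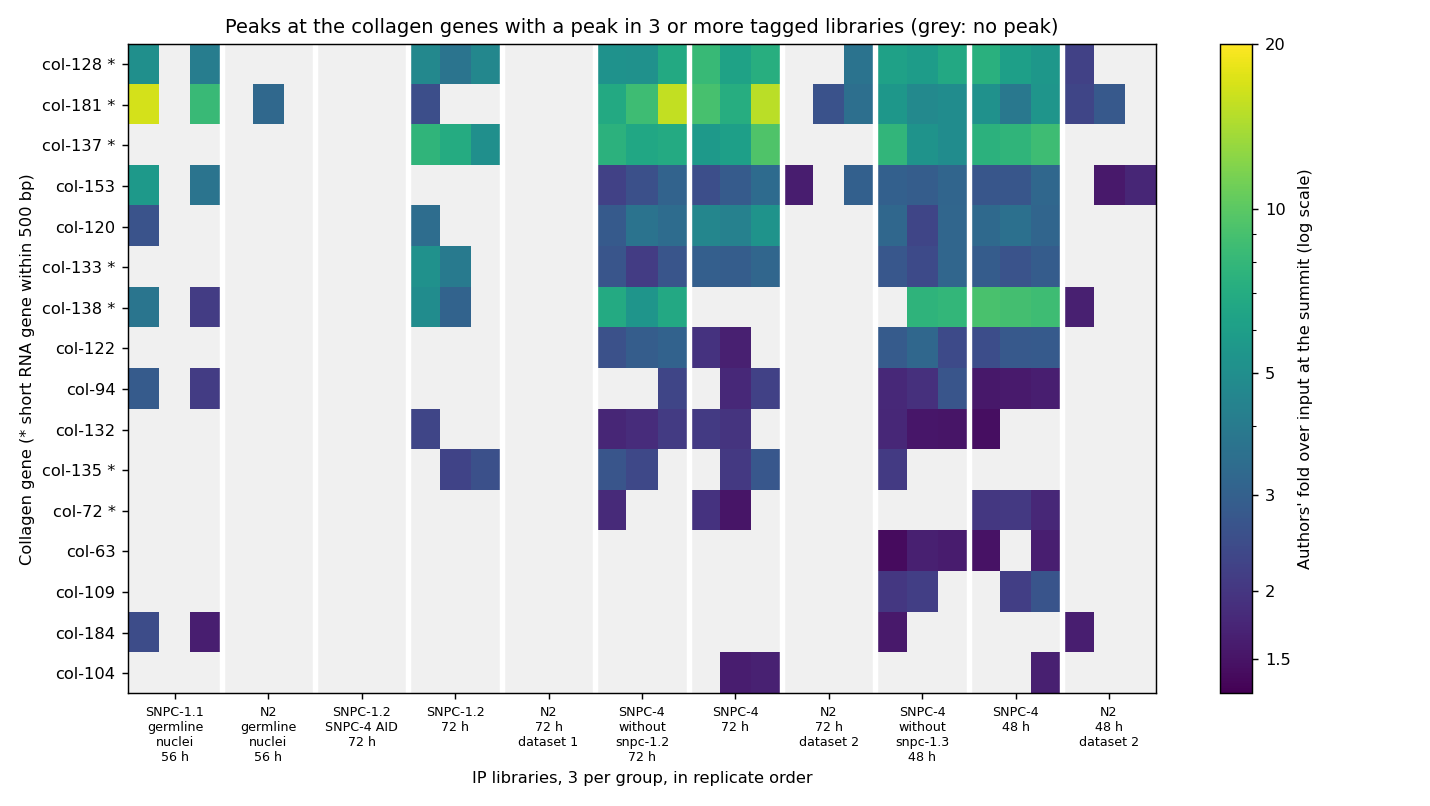
Peaks at the 16 collagen genes with a peak in 3 or more tagged libraries, by library, with colour for the authors' fold over input at the summit on a log scale and pale grey for no peak. The top rows fill the SNPC-4 columns at both ages, and col-138 is empty at SNPC-4 72 h while the columns beside it are filled. Folds are the authors' own values and describe a peak within its own list. Differences in fold between libraries were not tested.

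The first question was which collagen genes had a peak in tagged worms beyond the N2 background. Each gene's peaks were tested over 12 tagged and 12 N2 libraries, in 4 pairs (SNPC-1.1 nuclei, SNPC-1.2 worms, and SNPC-4 worms at 72 h and at 48 h, each with the N2 of its dataset and age). In every pair the N2 lists were shorter than the tagged ones, at 2 to 16 peaks in dataset 1. Tag and list length cannot be told apart here. The test was an exact two-sided permutation of peak presence within pairs, with Benjamini-Hochberg adjustment over all 19983 protein-coding genes and calls below 0.05. It called 5 collagen genes higher in tagged worms, or 3.21%, against a background of 8.21% of protein-coding genes, and 0 lower (background 0%). The 5 were col-137, col-128, col-133, col-120 and col-94. By the unadjusted exact permutation p below 0.05, 8 collagen genes were higher, beside 13.4% of protein-coding genes. When labels were swapped only between same-numbered libraries (a replicate block), the number of called collagen genes became 0.

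col-137 (IV:16601480-16602776) lies in the larger piRNA cluster, with 11 piRNA genes within 500 bp, and 21ur-42 overlaps it. Its folds over input were 7.78, 6.96 and 5.08 in SNPC-1.2 worms, 5.63, 6.10 and 9.45 in SNPC-4 worms at 72 h, and 7.5, 7.78 and 8.58 at 48 h, with no peak in N2. SNPC-1.1 nuclei had none either. The gene had a peak in 9 of 12 tagged and 0 of 12 N2 libraries (exact permutation p = 0.00025, adjusted p = 0.0155). In 12 of the 15 tagged libraries the counted summit lay at 21ur-42 and 21ur-12304, near the upper end, and in the other 3 at piRNA genes near the lower end. Called regions there ran to 13019 to 47158 bp, so 1 region spans many piRNA genes.

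col-128 (IV:11550002-11551960) lies outside the clusters beside the snoRNA gene F12F6.11 (IV:11549793-11549864), just below its lower end. SNPC-4 folds were 8.18, 6.29 and 7.22 at 72 h and 7.37, 6.07 and 5.50 at 48 h. SNPC-1.1 replicates 2 and 4 gave 5.08 and 4.13, and SNPC-1.2 gave 4.65, 3.73 and 4.63. N2 had a peak only in replicate 3 at 72 h (3.68) and replicate 1 at 48 h (2.21). This gene was marked by all 3 subunits, in 11 of 12 tagged and 2 of 12 N2 libraries (exact permutation p = 0.0008, adjusted p = 0.0193). All its summits lay 112 to 140 bp outside the lower end, within 200 bp of the snoRNA gene.

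col-120 (IV:9260610-9261787) was called with no short RNA gene near it, the closest being the piRNA gene 21ur-10539 at 10386 bp. Its folds were 4.56, 4.34 and 5.28 for SNPC-4 at 72 h and 3.30, 3.58 and 3.16 at 48 h. SNPC-1.2 replicate 1 had 3.46 and SNPC-1.1 replicate 2 had 2.62. The gene had a peak in 8 of 12 tagged and 0 of 12 N2 libraries (exact permutation p = 0.00125, adjusted p = 0.0234). Its summit kept to one place, 66 to 96 bp outside the lower end in all 14 tagged libraries with a peak, in regions of 325 to 811 bp. The gene flh-1 lies within 500 bp of col-120, but no tagged summit counted here lay within 200 bp of an end of it. In SNPC-4 lists at 72 h, 62.4% to 63.3% of peaks had a lower fold.

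col-133 (IV:14098325-14099356), in the larger cluster, had folds of 2.98, 2.90 and 3.20 for SNPC-4 at 72 h, 2.88, 2.63 and 2.89 at 48 h, and 5.16 and 3.97 in SNPC-1.2 replicates 1 and 2. It had a peak in 8 of 12 tagged and 0 of 12 N2 libraries (exact permutation p = 0.001, adjusted p = 0.0193). Regions over it ran to 20864 to 52880 bp, and its summits moved between both ends. col-94 (III:10986808-10987873) had a peak in 7 of 12 tagged and 0 of 12 N2 libraries (exact permutation p = 0.004, adjusted p = 0.0487). Its folds were 2.85 and 2.12 in SNPC-1.1, 1.78 and 2.21 in 2 of 3 SNPC-4 libraries at 72 h and 1.55, 1.58 and 1.64 at 48 h, with 5.3% to 48.4% of a list's peaks lower over all tagged libraries. Its neighbours col-92 and col-93, also within 500 bp of dhc-4, a dynein heavy chain gene, had a peak in 1 and 2 tagged libraries.

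Other recurrent genes did not pass. col-181 had a peak in 9 of 12 tagged and 5 of 12 N2 libraries (exact permutation p = 0.163, adjusted p = 0.982), and col-153 in 8 tagged and 4 N2 libraries (exact permutation p = 0.1, adjusted p = 0.619). The folds of col-153 were 5.65 and 3.73 in SNPC-1.1 replicates 2 and 4, 2.5, 2.84 and 3.39 for SNPC-4 at 72 h, and 1.62 and 3 in N2 replicates 1 and 3 at 72 h. col-138 had a peak in 7 tagged and 1 N2 libraries (exact permutation adjusted p = 0.144), and col-72 and col-122 in 5 tagged and 0 N2 libraries each (exact permutation adjusted p = 0.168). The col-153 summit also lay within 200 bp of F17C11.4. For SNPC-4 alone over both ages the exact permutation test called 0 collagen genes higher and 0 lower, with a background of 0% each way. Its smallest p is 0.005, and 6 collagen genes were higher at an unadjusted p below 0.05, beside 8.61% of protein-coding genes. The smallest adjusted p over all genes was 0.096, shared by col-120, col-133 and col-137.

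An exact permutation test of 3 against 3 libraries cannot go below p = 0.1, so single pairs were compared by counting genes with a peak in every library of one group and in no library of its counterpart. SNPC-1.2 over N2 gave 2 collagen genes, col-137 (mean fold 6.61) and col-128 (4.34), or 1.28%, beside a background of 1.88%. The N2 lists of that dataset held only 2 to 16 peaks, at 0.005% of protein-coding genes on average, so absence there says little. SNPC-4 over N2 gave 3 at 72 h (background 8.79%), col-137 (7.06), col-120 (4.72) and col-133 (3.03). At 48 h it gave 6 (background 8.70%), these 3 with col-122 (2.70), col-72 (1.95) and col-94 (1.59). SNPC-1.1 over N2 gave 0 (background 0.405%), since replicate 3 had no collagen peak.

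The second question was whether worms at 72 h, after the last moult, differed from L4 worms at 48 h. Of 18 collagen genes with a SNPC-4 peak in any library of either age, 11 (61.1%) had one at both ages, 2 (11.1%) at 72 h only (col-106 and col-135) and 5 (27.8%) at 48 h only (col-48, col-63, col-38, col-109 and col-138). Over all protein-coding genes with such a peak the shares were 70.5% at both ages, 18.7% at 72 h only and 10.8% at 48 h only. No test of this difference in shares was made. All 6 libraries had a peak at col-120, col-128, col-133, col-137, col-153 and col-181, 6 genes or 3.85%, against 10.6% of protein-coding genes. By the count of all 3 against none, 0 genes were at 72 h only (background 1.53%) and 1, col-138, at 48 h only (background 0.636%).

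At col-138 (IV:17182884-17183729) SNPC-4 had summits near the gene at both ages. At 72 h the nearest SNPC-4 summits lay 256, 202 and 226 bp from the gene with folds of 4.56, 4.9 and 6.6, just outside the window. At 48 h the counted summits, the highest in the window, lay at 184, 164 and 165 bp, with folds of 9.16, 8.88 and 8.55. The counted summits at 48 h, and the nearest of replicate 2 at 72 h, lay beyond the upper end within 200 bp of the piRNA gene 21ur-2624. The nearest of replicates 1 and 3 at 72 h lay beyond the lower end. Higher summits, within 200 bp of a neighbouring piRNA gene, lay 540 to 549 bp away at 72 h, with folds of 9.15, 7.61 and 9.43. At 48 h such summits lay 539 to 548 bp away, with folds of 9.68, 10.5 and 9.27. With a window of 500 bp or by region overlap col-138 was no longer at 48 h only. The adult marker col-19 had a peak in 1 library, SNPC-1.1 replicate 2 (fold 1.68). col-7, col-10 and col-13 had none and col-12 had 1, in worms without snpc-1.3 (1.73). col-12 and col-13 are a closely similar pair, and how reads matching both were placed is not given in the sources used here.

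**Figure D3:**
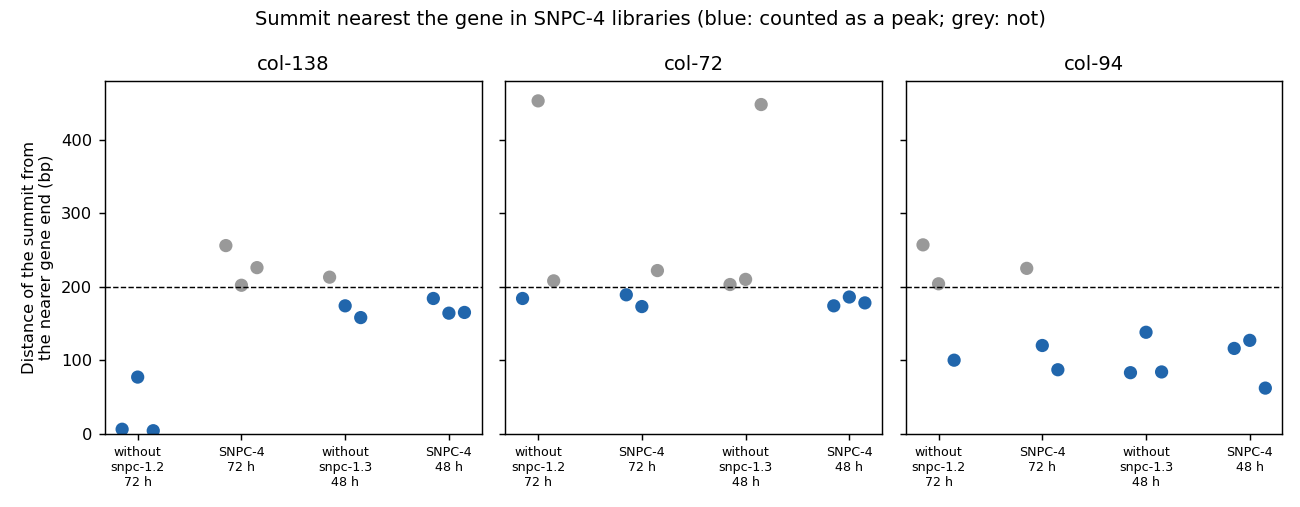
Distance in bp from the nearer gene end to a SNPC-4 summit for col-138, col-72 and col-94, 1 point per library, with the 200-bp limit as a dashed line. The summit is the highest within 200 bp, or the nearest where none was counted. Blue points are counted as a peak and grey ones are not: the 3 col-138 points of SNPC-4 worms lie at 202 to 256 bp at 72 h and at 164 to 184 bp at 48 h.

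With a snpc-1 paralogue deleted few collagen genes differed. Deletion of snpc-1.2, set against SNPC-4 at 72 h, gave 1 gene with a peak in all 3 libraries and none of its counterpart (background 0.160%), col-138 with folds of 6.91, 5.38 and 6.76, and 0 the other way (background 0.641%). The summits of the deletion strain lay 6, 77 and 4 bp from the upper end, and those of SNPC-4 at 72 h lay beyond the lower end in replicates 1 and 3 and beyond the upper end in replicate 2. Deletion of snpc-1.3, set against SNPC-4 at 48 h, gave 0 (background 0.120%) and, the other way, 1 (background 0.0751%), col-72. The nearest summits to an end of col-72 lay at 203, 210 and 448 bp in the deletion strain, and the counted ones at 174, 186 and 178 bp in SNPC-4 worms. Both calls were absent with a 500-bp window. In the AID strain no collagen gene had a peak, and SNPC-1.2 worms held 2 with a peak in all 3 libraries and none there (background 1.53%), col-137 and col-128. The AID lists held only 67 to 281 peaks, so absence there also says little.

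The third question was how germline nuclei compared with whole worms, where adult germline and hypodermis are both present. No collagen gene had a peak in all 3 SNPC-1.1 libraries and no SNPC-4 72 h library (background 0.005%). The other way there were 2 (background 3.24%), col-137 and col-133, both in the larger piRNA cluster. SNPC-1.1 replicate 3 had only 1504 peaks, and without it these counts became 7 and 2. That view, chosen after the values were seen, is given next.

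In both long SNPC-1.1 lists, replicates 2 and 4, 11 collagen genes had a peak, and 10 of them had none in N2 nuclei, or 6.41% of collagen genes, against 10.4% of protein-coding genes. Of the 11, 3 were shared with all SNPC-4 72 h libraries (col-128, col-153 and col-181) and 7 were in none of them, or 4.49%, against 1.33% of protein-coding genes. The 7 were col-20, col-93, col-95, col-103, col-119, col-138 and col-184. Their folds ran between 1.63 and 3.75 in the 2 lists. col-138 had 3.75 and 2.12, col-103 had 2.73 and 2.16, and col-20 had 2.36 and 2.24. Of the 7, col-103, col-138 and col-184 also had a peak in 1 whole-worm N2 library each. Apart from col-138, the 7 had no peak in any SNPC-4 library of either age without a deletion. At col-138 the nearest SNPC-4 summits at 72 h lay just outside the 200-bp window, as given above. Of the 32 SNPC-1.1 collagen peaks, counted per gene and library over 21 genes, 1 had its summit inside the gene. Over all tagged groups, these included, 45 of 193 did. No share over all protein-coding genes is given for this.

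Collagen genes next to a short RNA gene had peaks more often than the others. Annotated tRNA, snRNA, snoRNA, piRNA, miRNA, rRNA, spliced leader and related RNA genes, 16758 in all, were taken as short, and 16 collagen genes had one within 500 bp. Of these, 8 (50.0%) had a peak in at least 1 tagged library, against 30 of the 140 others (21.4%). Protein-coding genes gave 52.2% with and 27.3% without such a neighbour. Collagens with a neighbour thus had nearly the share of their protein-coding counterparts, and those without had a lower one.

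The same split stood in the SNPC-4 and SNPC-1.2 groups. At SNPC-4 72 h, 33.3% ± 3.61 of collagen genes with a neighbour and 3.81% ± 0.412 of those without had a peak, where protein-coding genes had 33.6% ± 0.510 and 15.6% ± 0.377. At 48 h the collagen values were 39.6% ± 3.61 and 4.52% ± 1.09, and the protein-coding ones 33.9% ± 1.33 and 13.3% ± 0.533. SNPC-1.2 had 27.1% ± 7.22 and 0.476% ± 0.825 of collagen genes, and 20.3% ± 7.63 and 4.83% ± 3.38 of protein-coding genes. In each of these groups the lowest library with a neighbour stood above the highest without. SNPC-1.1 had 12.5% ± 10.8 and 6.19% ± 5.77, which overlap, replicate 3 being at 0 in both. Its protein-coding values were 12.8% ± 9.33 and 10.8% ± 8.92.

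**Figure D4:**
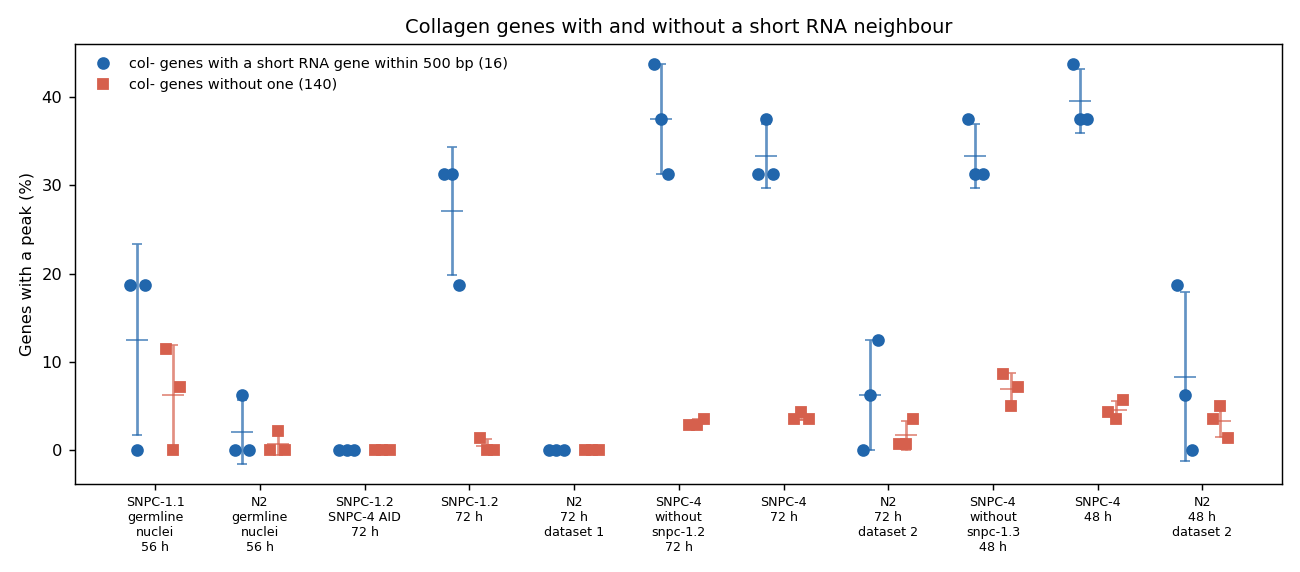
Percent of collagen genes with a peak by library, for the 16 with a short RNA gene within 500 bp (blue circles) and the 140 without (red squares), with mean and SD of 3 libraries. The SNPC-4 libraries reach 31.2% to 43.8% with a neighbour and stay below 9% without, and SNPC-1.1 libraries overlap.

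Summits at the neighbour itself were counted next, a view added after the values were seen. All 5 collagen genes with a tRNA gene in or beside them, col-54, col-72, col-85, col-99 and col-181, had a summit within 200 bp of that tRNA gene in all 6 SNPC-4 libraries. Over all 634 tRNA genes the share was 74.8%. In col-54, col-72, col-85 and col-99 the tRNA gene sits inside the collagen gene, too far from its ends for the 200-bp rule. Of these, col-54, col-85 and col-99 count as collagens without a peak, and col-72 was counted in some libraries by another summit. Every one of the 5 also had a tRNA summit in at least 2 N2 libraries. Over all 634 tRNA genes, 54.1% had a summit in any N2 library, which is a looser count.

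col-85 (II:12493703-12495095) holds the tRNA gene T21B4.t1 (II:12494741-12494814). Folds there were 59.0, 57.7 and 80.0 for SNPC-4 at 72 h, against 3.00, 1.81 and 2.70 in N2, and 45.0, 41.7 and 47.0 at 48 h, against 2.55 and 2.35 in 2 of 3 N2 libraries. SNPC-1.1 nuclei had 61.0, 4.14 and 40.0, against 1.64 and 3.00 in 2 of 3 N2 libraries. The SNPC-4 summits were among the strongest of their lists, with 99.3% to 99.4% of SNPC-4 72 h peaks lower. In N2, 21.3% to 92.4% of peaks were lower at 72 h, and 88.5% and 85.7% in replicates 1 and 2 at 48 h. Folds of different libraries stand side by side here without a test. SNPC-1.2 gave 2.54, 2.95 and 3.24 at the same tRNA gene, where 26.6% to 37.4% of its peaks were lower.

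col-72 (II:3520703-3524197) holds W09G10.t1 (II:3521487-3521558), with folds of 9.06, 7.93 and 11.8 for SNPC-4 at 72 h, against 2.63, 2.30 and 3.49 in N2. At 48 h they were 7.5, 5.63 and 6.80, against 2.95, 2.44 and 2.30. These summits lie 765 bp or more inside the gene, apart from the one beyond its lower end that the rule counted. col-99 (IV:137974-147919), the transmembrane collagen, holds F29C4.t1 (IV:143982-144054), with folds of 4.78, 4.33 and 6.25 for SNPC-4 at 72 h and 5.38, 4.51 and 5.01 at 48 h. col-54 (I:5842709-5844050) holds F33D11.t2 (I:5843083-5843155), where SNPC-4 folds at 72 h were 5.27, 4.14 and 5.04, and those at 48 h were 4.00, 4.31 and 4.38.

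col-181 (X:12104930-12106102) has W03G11.t1 (X:12106147-12106219) 45 bp beyond its upper end. SNPC-1.1 replicates 2 and 4 gave folds of 16.7 and 8.30, against 3.28 in 1 N2 library. SNPC-4 gave 9.02, 7.17 and 15.0 at 72 h, against 2.59 and 3.53 in 2 N2 libraries, and 5.19, 3.9 and 5.39 at 48 h, against 2.30 and 2.80 in 2. SNPC-1.2 had a peak in replicate 1 only, at 2.52. Every counted tagged summit lay 55 to 94 bp outside the upper end, on or within 200 bp of the tRNA gene.

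**Figure D5:**
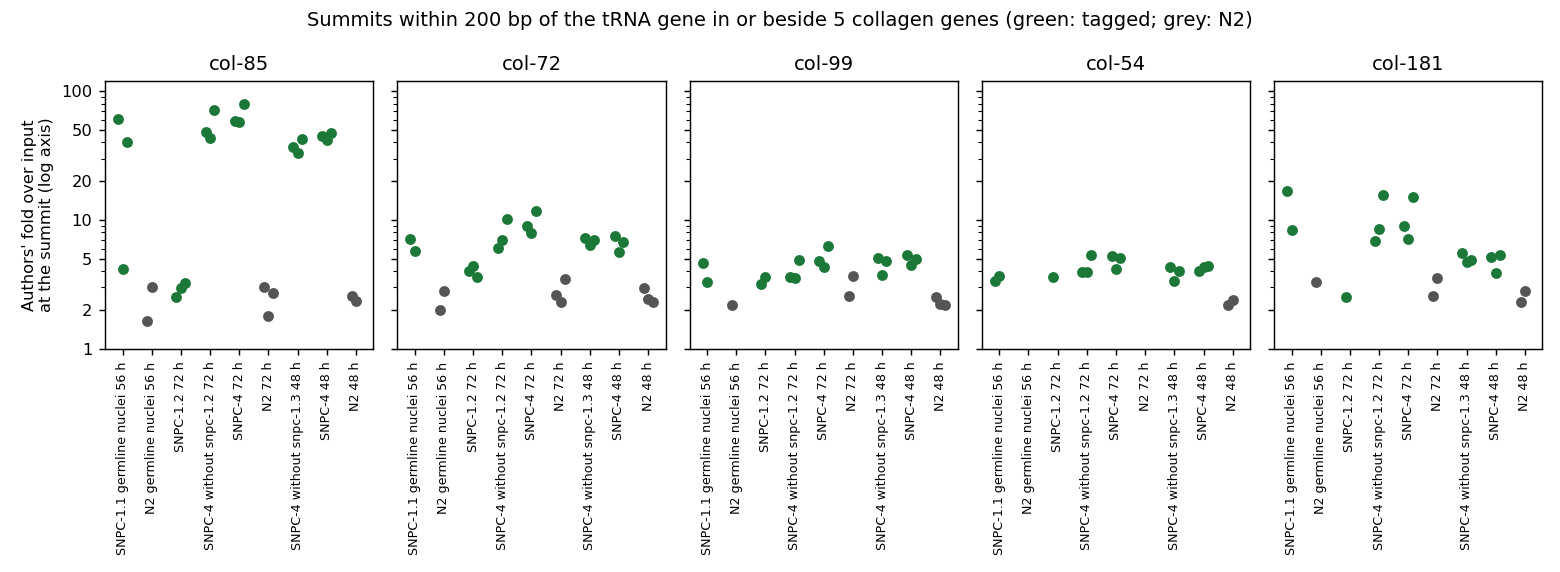
Authors' fold over input on a log axis at summits within 200 bp of the tRNA gene in or beside 5 collagen genes, 1 point per library with such a summit, tagged in green and N2 in grey. At col-85 SNPC-4 points, deletion strains included, lie at 32.9 to 80.0 and SNPC-1.2 points at 2.54 to 3.24; the other 4 genes stay at 16.7 or below.

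Of 10 collagen genes with piRNA neighbours, 4 lay inside the larger cluster (col-133, col-135, col-137 and col-138), and all 4 had a summit within 200 bp of a neighbouring piRNA gene in some tagged library. The 6 outside the clusters (col-2, col-35, col-38, col-45, col-115 and col-146) had none in any library. Over all 1159 piRNA genes outside the clusters 28.1% had one in some tagged library. No N2 library had a summit at any of the 10. In the clusters the other 2 collagen genes, col-110 and col-111, had no tagged peak, so 4 of 6 cluster collagens had one (66.7%), against 90.7% of 942 protein-coding genes in the clusters. Of the 48 tagged peaks at cluster collagens, 45 lay in regions longer than 10000 bp, and for these a peak at the collagen gene cannot be told apart from signal over the cluster. The other 3 lay in short regions, of 2093 and 278 bp at col-138 in SNPC-1.1 replicates 2 and 4 and of 1522 bp at col-135 in SNPC-1.2 replicate 3.

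The collagen peaks of all tagged libraries, counted per gene and library, were 193 over 38 genes. Of these, 64 had their summit within 200 bp of a short RNA gene, all at 5 genes, with a median fold of 6.17. The other 129 had a median fold of 2.21. Among the 129, 100 lay near no other annotated gene end. Both medians pool libraries and repeat genes, and no such value over all protein-coding genes is given. Summits lay outside the gene in 148 and inside it in 45, at a median of 121 bp from the nearer end.

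N2 background was the last comparison. By the summit rule 19 collagen genes had a peak in at least 1 of 12 N2 libraries, 13 of them also in tagged worms and 6 in N2 alone. As shares these were 12.2%, 8.33% and 3.85% of collagen genes, beside 10.3%, 9.37% and 0.901% of protein-coding genes. The most frequent were col-181 (5 libraries), col-153 (4) and, with 2 each, col-128, col-107, col-124, col-139 and the overlapping pair col-159 and col-160. The first 3 lay at an RNA gene or at a shared gene end and had tagged peaks as well. col-107, col-124 and col-139 had no peak in any SNPC-4 library without a deletion, and their N2 folds were 1.49 to 1.97. No collagen gene had a peak in all 3 N2 libraries of one age and none of the other (background 0.155% at 72 h only and 0.035% at 48 h only).

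Collagen genes were also counted by any overlap of a called region with the gene, a view chosen after the values were seen. SNPC-4 at 48 h had 12.2%, 10.9% and 10.9% of collagens and 25.2%, 24.8% and 24.7% of protein-coding genes. The 3 N2 libraries at 48 h overlapped 33, 13 and 7 collagen genes, or 21.2%, 8.33% and 4.49%, against 5.28%, 6.41% and 1.92% of protein-coding genes. N2 at 72 h overlapped 3, 5 and 12 collagen genes, or 1.92%, 3.21% and 7.69%, against 5.02%, 2.83% and 9.1% of protein-coding genes. N2 nuclei overlapped 3, 7 and 0, or 1.92%, 4.49% and 0%, against 1.6%, 1.93% and 0.05%. In each N2 library at 48 h the collagen share was above the protein-coding one, most of all in replicate 1, and in each SNPC-4 library it was below. It was also above in N2 nuclei replicates 2 and 3 and in N2 72 h replicate 2.

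In at least 2 of the 3 N2 48 h libraries 14 collagen genes were overlapped, 8.97%, against 3.55% of protein-coding genes. Among the 14, 7 (50.0%) were overlapped in no SNPC-4 48 h library, namely col-49, col-97, col-107, col-109, col-124, col-129 and col-139, with N2 folds of 1.49 to 1.93. Of these, col-109 had SNPC-4 summits within 200 bp of an end, with folds of 2.17 and 2.65 in replicates 2 and 3. Of the 710 protein-coding genes overlapped in at least 2 N2 libraries, 40 (5.63%) were in no SNPC-4 one. The 4 collagens with a tRNA gene inside and col-181 were also among the 14, with folds up to 2.95.

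Other genes of cuticle building were counted from lists of known genes. Of 19 cuticle collagens named for a phenotype, 6 had a tagged peak and 2 an N2 peak, and 2 were called higher in tagged worms over the 4 pairs. As shares these were 31.6%, 10.5% and 10.5%, near the 30.0%, 10.3% and 8.21% of all protein-coding genes. The called genes were dpy-4 (adjusted exact permutation p = 0.0155) and sqt-2 (adjusted exact permutation p = 0.0487), both of which affect body shape. dpy-4 (IV:14985543-14986784), in the larger cluster, had folds of 10.5, 9.22 and 11.3 for SNPC-4 at 72 h and 14.2, 12.4 and 14.8 at 48 h, with none in N2. It has a short RNA gene within 500 bp and had no peak in SNPC-1.1 nuclei. Its peaks were not told apart from signal over the cluster. sqt-2 (II:23325-24458) had SNPC-4 folds of 3.92, 3.63 and 5.04 at 72 h. At 48 h they were 3.46, 2.91 and 2.71, and N2 had 1 peak, of 1.73. dpy-13, dpy-9 and rol-8 had a peak in 4, 3 and 2 tagged libraries.

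Of 8 enzymes that modify collagen or cross-link cuticle, 4 had a tagged peak and the same number an N2 peak, and 0 were called higher. The 50% with a tagged peak and 50% with an N2 peak stand beside 30.0% and 10.3% of protein-coding genes. pdi-2, a subunit of the prolyl 4-hydroxylase that stabilises collagen helices, had a peak in 14 tagged and 5 N2 libraries. Its catalytic partners dpy-18 and phy-2 had 6 and 2, and 5 and 4, and the thioredoxin-like gene dpy-11 had 4 and 1. At SNPC-4 48 h dpy-18 had folds of 48.9 and 42.5 in replicates 1 and 2 and no peak in replicate 3. It had no peak by the 200-bp rule in worms without snpc-1.3, and at SNPC-4 72 h a fold of 5.89 in replicate 1 only. Summits of dpy-18 outside the window were not looked at. A summit moved across the 200-bp limit therefore cannot be told apart here from an absent one. Of 3 basement membrane collagens, let-2, a type IV chain, had a peak in 2 tagged libraries, emb-9 and cle-1 had none, and 0 were called.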

How the data were processed

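ChIP-seq peak lists of 33 IP libraries were analysed, 11 groups of 3. Per the labels, libraries were read as 50-bp paired ends, and the labels do not say whether replicates were separate cultures, so p-values measure the spread between these samples only. MACS2 2.1.2, deepTools and the build WBcel235 are named in the submitters' processing notes. The aligner, its treatment of reads that match several collagen genes, and filters are not given in the sources used here. Each deposited list holds 1 IP library, so replicates were not pooled. The deposited lists give the fold as a ratio of IP over input at the summit, and a −log10 q value for each peak. The summit offset, a deposited position in bp of another kind than a signal, placed each peak at column 2 plus column 10.

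Genes came from RefSeq's table of WBcel235. The members and lists were chosen with earlier results of these data known. No counts were used, so depth is unknown and no counting interval is given. The authors' folds describe peaks within a list only. Genes named were those with the highest mean fold in each count, those with a peak in the most N2 or tagged libraries, those beside a short RNA gene, and col-19, col-7, col-99, col-10, col-12, col-13, col-63 and col-138. Other genes were named after their values were seen, as were the tRNA summits inside collagen genes. Exact permutation tests used 160000 labellings over 4 pairs and 400 over 2 ages. The piRNA clusters were taken on chromosome IV as 4500000 to 7000000 bp (smaller) and 13500000 to 17200000 bp (larger). At most 12.5% of the shorter list's summits were at the same base in another list, over 528 pairs of lists. For N2 replicate 2 of dataset 3 the label's description mentions SNPC-1.2, and its title was followed. Python 3.11.15, numpy 2.4.6, pandas 2.3.3 and matplotlib 3.10.9 were used, and the test was tested on simulated data.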

Additional observations from a re-analysis of the deposited data

How the results depend on the processing

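Among alternative values for the counts of collagen genes, 146 stayed within 1.5 times the value given and 69 did not. By region overlap the 0 genes at 72 h only and 1 at 48 h only became 1 and 0, and the 0 for SNPC-4 72 h over worms without snpc-1.2 and 1 the other way became 1 and 0, so the larger count changed sides in both. Over the 4 pairs the 5 called genes became 11 with a 500-bp window, 10 by region overlap, 2 with peaks of fold 3 or more, 2 without collagens beside a short RNA gene, 8 when only genes with a peak were tested, 3 without collagens in the piRNA clusters (added after seeing the data, as are all values without cluster genes) and 5 to 6 when 1 library was left out. For SNPC-4 over both ages the 0 became 7, 5 and 3 with the 500-bp window, region overlap and only genes with a peak tested. Same-numbered libraries did not deviate together (correlations of -0.217 to 0.049), and no label says that a number marks a shared batch. With 3 libraries per group this cannot exclude that the numbers pair the samples. With a replicate block the 4-pair count became 0. For counts of all 3 against none, the block asks that at least 2 same-numbered pairs differ and none the other way, a looser rule, and gave 5 for SNPC-1.2 over N2, 11 and 10 for SNPC-4 over N2 at 72 h and 48 h, 10 for SNPC-1.1 over N2, 2 at 72 h only, 3 at 48 h only, 2 in N2 at 48 h only, 5 for SNPC-1.2 over the AID strain, 3 for worms without snpc-1.3 and 2 at 72 h over worms without snpc-1.2.

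With the 500-bp window the counts against N2 were 6 (SNPC-1.2), 14 (SNPC-4 72 h) and 10 (SNPC-4 48 h), 2 were at 48 h only, 6 were in SNPC-4 72 h over SNPC-1.1 and 6 in SNPC-1.2 over the AID strain. By region overlap they were 6 for SNPC-1.2, 11 for SNPC-4 72 h and 1 for SNPC-1.1 over N2, 1 at 72 h only, 0 at 48 h only, 5 in SNPC-4 72 h over SNPC-1.1, 6 over the AID strain and 1 at 72 h over worms without snpc-1.2. Both settings gave 0 for the single genes that differed with either deletion, col-138 and col-72. Lists shortened to the shortest of the pair gave 0 for SNPC-1.2, SNPC-4 72 h and SNPC-4 48 h over N2 and for SNPC-4 72 h over SNPC-1.1. Without collagens beside a short RNA gene the counts over N2 were 0 (SNPC-1.2), 1 (SNPC-4 72 h) and 3 (SNPC-4 48 h), with 0 at 48 h only and 0 in SNPC-4 72 h over SNPC-1.1. Without cluster collagens they were 1 for SNPC-1.2 and 1 for SNPC-4 72 h over N2, 0 at 48 h only and 0 in SNPC-4 72 h over SNPC-1.1. The cause of these changes was not tested beyond the fewer genes or wider windows that the settings themselves bring.

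Leaving out 1 library can only keep or raise a count of all 3 against none. It gave 2 to 4 for SNPC-1.2 over N2 and over the AID strain (4 without SNPC-1.2 replicate 3), 3 to 6 for SNPC-4 72 h over N2 (6 without SNPC-4 72 h replicate 1 or 3), 6 to 8 at 48 h, 0 to 10 for SNPC-1.1 over N2 and 0 to 7 over SNPC-4 72 h (10 and 7 without SNPC-1.1 replicate 3), and 2 to 5 in SNPC-4 72 h over SNPC-1.1 (4 and 5 without SNPC-4 72 h replicate 1 and 3). It gave 0 to 1 at 72 h only (1 without SNPC-4 72 h replicate 1 or 2), 1 to 2 at 48 h only (2 without SNPC-4 48 h replicate 1 or 2), 0 to 1 in N2 at 48 h only (1 without replicate 2 or 3), 0 to 2 for worms without snpc-1.3 over SNPC-4 (2 without replicate 2 of the deletion strain, 1 without SNPC-4 48 h replicate 1) and 0 to 1 for SNPC-4 72 h over worms without snpc-1.2 (1 without SNPC-4 72 h replicate 1 or 2). Unknown depth limits all counts: a gene without a listed peak may have signal below the authors' threshold. The share of collagens minus that of all protein-coding genes was negative for each tagged subunit (-10.7 percentage points for SNPC-4 at 72 h, -7.36 at 48 h) and remained so with a 500-bp window, by region overlap and with peaks of fold 3 or more.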

Other observations

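col-63, a collagen gene on chromosome I (I:8243694-8244963), had summits near its lower end, with folds of 1.41 to 1.65 in 5 SNPC-4 libraries at 48 h, 3 of them without snpc-1.3. Another summit lay 676 to 715 bp beyond its upper end, within 200 bp of the ncRNA gene ZK265.11 and of an end of ceh-8. Its fold was 193, 17.1 and 134 in SNPC-1.1 replicates 2, 3 and 4 and 171 and 142 in SNPC-4 72 h replicates 1 and 2. In SNPC-1.2 replicates 1 and 2 it was 4.6 and 3.14, and in N2 it was 2.35 and 2.78 in replicates 1 and 3 at 72 h and 2.07 and 2.19 in replicates 2 and 3 at 48 h. Only 1 summit per library was kept, the highest within 200 bp of an end of col-63 or else the nearest. A library left out of this list, such as those of SNPC-4 at 48 h, is thus not shown to lack the stronger summit.

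col-159 and col-160 on chromosome V overlap, so 1 summit counts for both. Each had a peak in 1 tagged and 2 N2 libraries.

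These genes, apart from col-63, were chosen after their values were seen.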
